A study of Mus musculus with 32 samples.

Results

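The segments Igkv4-81, Igkv4-80, Igkv4-79, Igkv4-78, Igkv4-77, Igkv4-75, Igkv4-74 and Igkv4-73 are neighbouring Vκ gene segments at the Igκ light-chain locus of the mouse. They were taken by name, as all segments of the Igkv4 family with a position number from 73 to 81, and are 8 of the 112 Vκ segments counted. This range was set with earlier results of these data known. Of these 8, the annotation lists 5 as functional genes and 3 as pseudogenes (Igkv4-77, Igkv4-75 and Igkv4-73). Their use in rearranged Igκ RNA was measured in 10 libraries. There is 1 library for each of 5 pre-B-cell clones (clones 4, 8, 3, B52 and E9-3) after 48 h without IL-7, 1 for a pre-B-cell pool, and 1 for each time of a separate course of clone 4, at 12, 24, 36 and 48 h of IL-7 removal. All cells carried a C57BL/6 (B6) and a Castaneus (Cast) copy of the locus. F1 females of the B6/Cast cross, 8 to 12 weeks old, gave the marrow from which pre-B cells were selected with IL-7 on irradiated ST2 feeder cells, and each clone is the progeny of a single cell obtained by limiting dilution. The labels list the pool as cultured cells in the 48 h table. The study's methods state no time without IL-7 for a pool. Because the tables hold Vκ segments only, the labelled cell type could not be checked against marker genes.

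In a pre-B cell, the RAG recombinase cuts beside a Vκ segment and beside a Jκ segment and joins them, and the joined exon is spliced to Cκ to encode a κ light chain. RAG recognises a recombination signal next to each segment, made of a heptamer and a nonamer with a spacer of fixed length between them. IL-7 keeps pre-B cells dividing, and its removal starts Igκ rearrangement. A segment that lies in the same orientation as Jκ joins by deletion of the DNA between them, and one in the opposite orientation joins by inversion. Pseudogene segments may still carry a signal and be joined, but cannot encode a working chain. Igkv4 is the largest family at the mouse locus.

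All 8 segments lay on the minus strand of chromosome 6, opposite to Jκ and Cκ on the plus strand, within 207.4 kb between 68990758 and 69198116 (GENCODE M21 on mm10). They were 1528 to 1735 kb away from the Cκ exon at 70726435 to 70726966. Each had 2 exons, and the gaps between neighbours ranged from 12.2 kb between Igkv4-74 and Igkv4-73 to 50.7 kb between Igkv4-78 and Igkv4-77. No other counted segment fell in this span, although the annotation lists 13 Vκ segments there. The end of the V exon with the recombination signal that follows it is shown for each segment, since the signal is what RAG binds and the exon end is the sequence that is joined to Jκ. The sequences are of the B6 reference genome (mm10), 5′ to 3′ on the minus strand. Lower case marks the last 30 exon bases and the 12-base spacer, and capitals mark the heptamer and the nonamer.
Igkv4-81, functional, chr6:68990730-68990787: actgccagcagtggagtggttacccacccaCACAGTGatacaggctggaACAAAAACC
Igkv4-80, functional, chr6:69016530-69016587: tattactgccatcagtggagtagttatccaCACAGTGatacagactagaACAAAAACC
Igkv4-79, functional, chr6:69042944-69043001: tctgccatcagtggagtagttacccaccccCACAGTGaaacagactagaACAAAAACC
Igkv4-78, functional, chr6:69059662-69059719: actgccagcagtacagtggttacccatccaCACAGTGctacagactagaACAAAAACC
Igkv4-77, pseudogene, chr6:69110876-69110933: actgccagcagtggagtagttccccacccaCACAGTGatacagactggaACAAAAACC
Igkv4-75, pseudogene, chr6:69156090-69156147: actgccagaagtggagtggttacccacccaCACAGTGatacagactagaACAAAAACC
Igkv4-74, functional, chr6:69184798-69184855: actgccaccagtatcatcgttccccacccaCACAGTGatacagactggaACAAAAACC
Igkv4-73, pseudogene, chr6:69197555-69197612: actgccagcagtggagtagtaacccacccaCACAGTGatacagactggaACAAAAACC

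All 8 segments, pseudogenes included, had the letters CACAGTG as heptamer and ACAAAAACC as nonamer, read on the coding strand only, with the heptamer directly after the annotated exon. Of the 111 counted segments found in the annotation, 85.6% had this heptamer and 34.2% this nonamer. Among the 9 counted Igkv4 segments at positions 60 to 72, all had the heptamer and 66.7% the nonamer, and among the 9 at positions 50 to 59 all had the heptamer and 77.8% the nonamer. The signals differed only in the spacer. Igkv4-77, Igkv4-74 and Igkv4-73 shared one spacer and Igkv4-80 and Igkv4-75 another, whereas Igkv4-81, Igkv4-79 and Igkv4-78 each had its own, 1 or 2 bases away from that of Igkv4-77. The V exons of the B6 reference were all read in the frame that a first exon of 49 bases leaves. In that frame, Igkv4-77 held 1 stop codon and Igkv4-75 held 2, whereas the pseudogene Igkv4-73 held 0, as did the 5 functional segments. The annotated first exon had 50 bases in Igkv4-75 and 85 in Igkv4-74, and no other frame was read. The stop codons of Igkv4-75 therefore need not lie in the frame of its annotated exons. The exons were much alike. Igkv4-79 and Igkv4-78 were 96.1% identical over the V exon, with 137 bases in a row in common. Igkv4-73 was 95.2% identical to Igkv4-79, Igkv4-74 was 94.2% identical to Igkv4-78, and Igkv4-77 was 95.05% identical to Igkv4-68. For Igkv4-80 the closest counted segment was Igkv4-57 with 92.98%, for Igkv4-81 it was Igkv4-58 with 92.2%, and for Igkv4-75 it was Igkv4-81 with 92.2%. The alignment may have divided reads among such close relatives, so the values of single segments are uncertain to that extent.

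The deposited values are reads counted on each segment and allele. They were expressed as the percent of all allele-assigned reads of the library, and as the B6 share, the percent of a segment's reads on the B6 allele. The libraries held 320951 reads in the pool, 34291 to 165679 in the clones and 1174 to 10958 in the time course. The percent that 3 reads make, taken as the detection limit, ranged from 0.000935% in the pool to 0.256% in the 24 h library. Intervals in brackets are 95% Wilson intervals, and intervals and limits cover counting error only, since PCR reads without molecular identifiers are not independent molecules. With 1 library a condition, a test on reads compares libraries and not clones or times. It was made by Fisher's exact test (two-sided) with Benjamini-Hochberg adjustment over all segments with at least 20 reads over both libraries. The result is given as the adjusted exact p. A B6 share was called different at an adjusted exact p under 0.05, and a percent of library when it also differed by at least 2-fold.

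The libraries fell into sets that do not follow the clones. Igkv3-5 and Igkv10-94, which are outside the Igkv4 family, had B6 reads in the pool and the 48 h libraries of clones 4 and 8 (152, 27 and 105 reads of Igkv3-5, and 209, 14 and 16 of Igkv10-94), and 0 reads in clones 3, B52 and E9-3 and in all 4 time-course libraries. Clone 4 at 48 h is thus in both sets by these counts. In the 48 h clone table it had 0.0418% Igkv3-5 and 0.0217% Igkv10-94. Of these levels, only that of Igkv3-5 exceeds 3 reads in a time-course library, the 48 h library (0.0274%). The 0 reads at 12, 24 and 36 h therefore do not place those libraries. Of the 8 segments, Igkv4-74, Igkv4-73 and Igkv4-80 moved with the split between the sets, which was drawn after the counts were seen. The sums, call counts and medians over the segments are therefore given with and without these 3. What set the libraries apart was not tested, and between clones 4 and 8 on the one side and clones 3, B52 and E9-3 on the other, library set and clone cannot be told apart.

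Together the 8 segments made up more of the rearranged RNA in every clone than in the pool when the reads of both alleles were counted. Among B6 reads alone, this held for clone 3 only when Igkv4-73, Igkv4-74 and Igkv4-80 were left out. The summed reads of the 8 segments were mostly on B6 in clones 4 and 8 and about equal on both alleles in clones 3, B52 and E9-3. These sums join segments with unlike shares. In clone B52 the B6 share was 14.2% for Igkv4-79, 53.1% for Igkv4-78, 85.6% for Igkv4-81 and 100% for Igkv4-75. Their summed percent of library was 2.10% in the pool (95% interval 2.06 to 2.16). Clone 4 had 4.83%, clone 8 had 6.30%, clone 3 had 2.41%, clone B52 had 6.42% and clone E9-3 had 4.92%. Clone 3 was close to the pool, at 1.14 times its level, and clone B52 was highest, at 3.05 times. Among B6 reads alone the segments took 2.45% of clone 3, below the 2.92% of the pool, and 4.98% to 7.76% of the other clones, whereas among Cast reads alone they took 2.37% of clone 3 and 1.01% of the pool. Without Igkv4-73, Igkv4-74 and Igkv4-80 the sums were 1.22% in the pool and 2.21% to 6.14% in the clones, which were 1.81 to 5.03 times the pool. Among B6 reads alone, the other 5 segments took 2.33% of clone 3, above the 1.55% of the pool. The summed B6 share was 79.6% for the pool, 82.9% for clone 4 and 77.4% for clone 8, against 52.02% for clone 3, 51.5% for clone B52 and 54.3% for clone E9-3. Without the same 3 segments the B6 shares were 72.8%, 83.1% and 76.2% in the first libraries and 54.0%, 52.3% and 55.5% in the others. The intervals of the summed percent overlapped for clones 4 and E9-3 and for clones 8 and B52, and those of the B6 share for clones 3, B52 and E9-3. The reads of all segments were 57.4% on B6 for the pool, and for clones 4, 8, 3, B52 and E9-3 this was 71.8%, 62.9%, 51.2%, 65.8% and 53.7%. In clone B52, the 8 segments took 9.10% of the Cast reads and 5.02% of the B6 reads, whereas in clone 8 they took 3.83% of the Cast reads and 7.76% of the B6 reads. Without the 3 segments, clone B52 had 8.55% of Cast and 4.88% of B6 reads, whereas clone 8 had 3.31% of Cast and 6.23% of B6 reads.

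**Figure D1:**
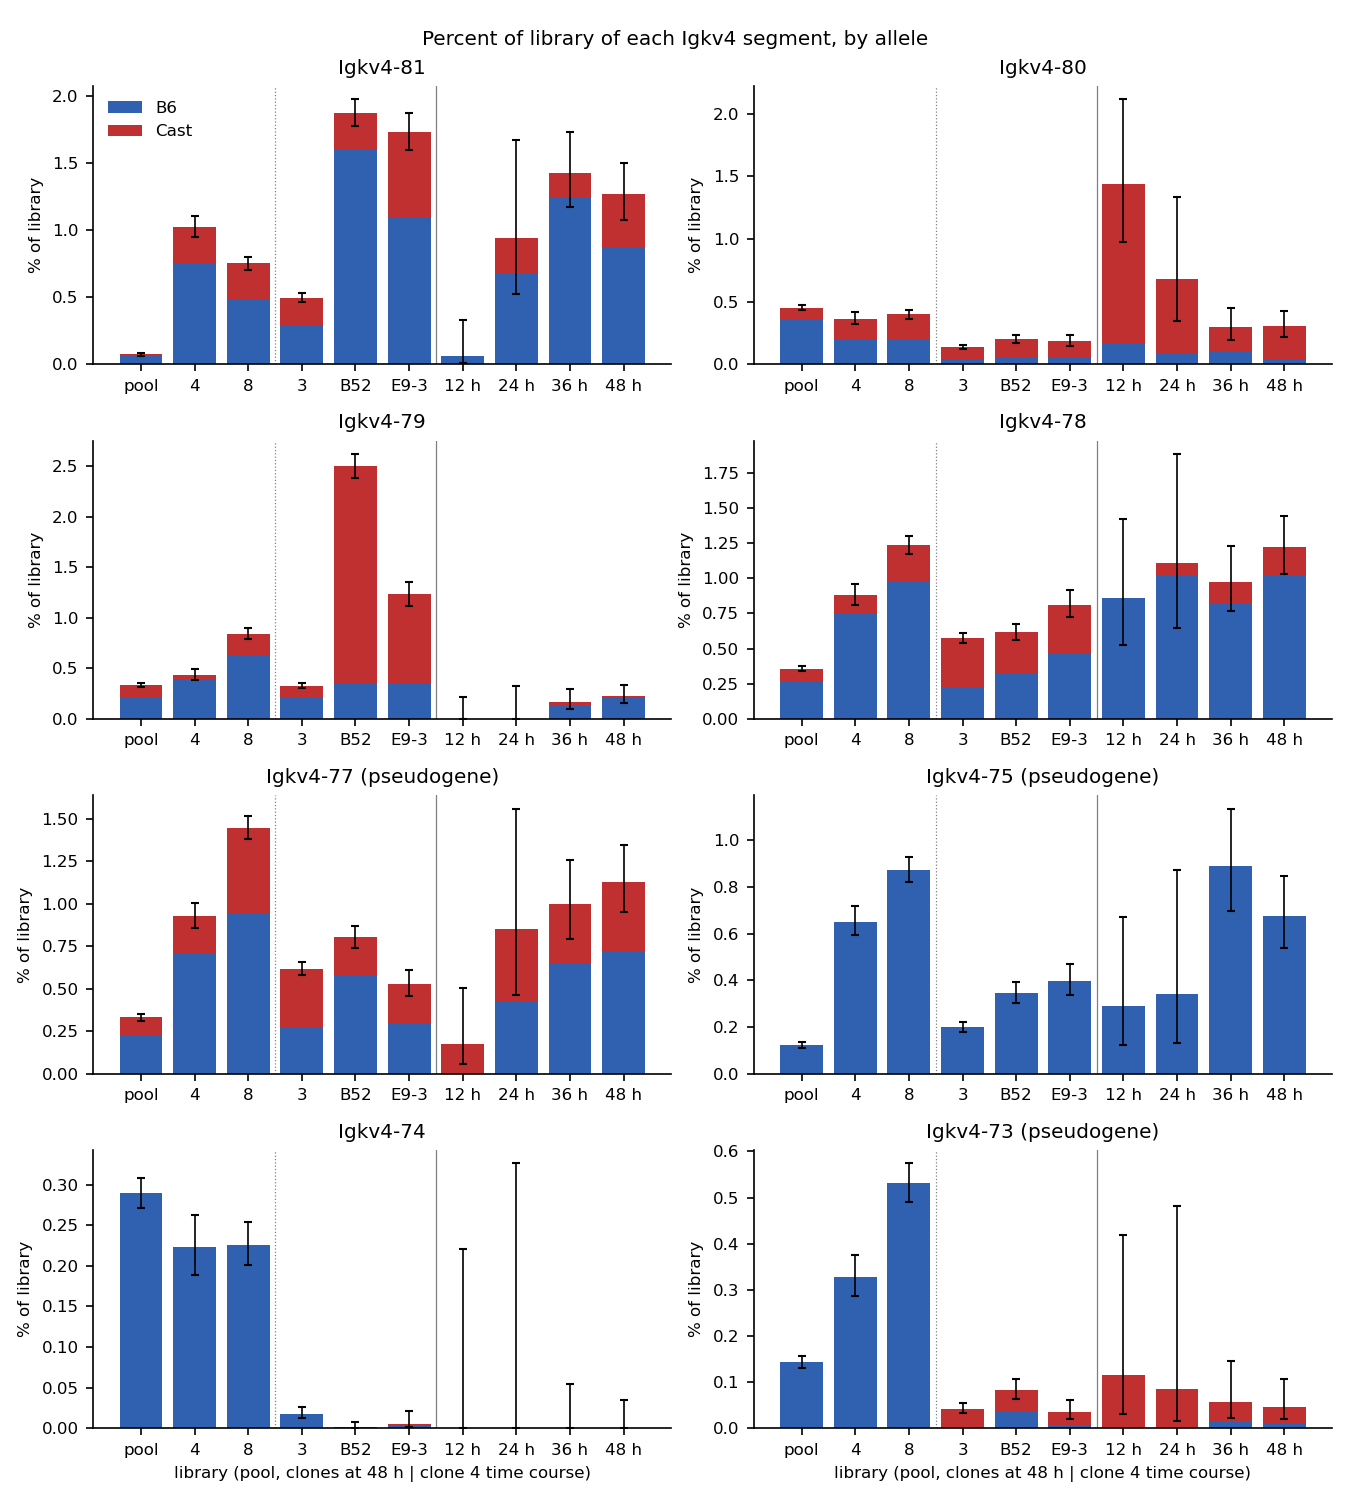
Percent of library (y axis, each panel with its own scale) of each of the 8 Igkv4 segments in the pool, the clones at 48 h and the clone 4 time course (x axis), with B6 reads in blue, Cast reads in red and 95% Wilson intervals of the total as bars; the dotted line parts the pool and clones 4 and 8 from clones 3, B52 and E9-3. Igkv4-79 reaches 2.502% in clone B52, with 2.15% from Cast, whereas Igkv4-75 has no red in any library.

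Igkv4-81, the segment of the group farthest from Jκ and a functional gene, was the lowest of the 8 in the pool and rose in all clones. It made up 0.0720% of the pool (0.0633 to 0.0819), against 1.02% for clone 4, 0.750% for clone 8, 0.495% for clone 3, 1.87% for clone B52 and 1.73% for clone E9-3. The clones lay 6.88-fold (clone 3) to 26.0-fold (clone B52) above the pool, and no clone's interval reached that of the pool. Igkv4-81 was not among the segments that moved with the library sets. Its B6 share was 79.7% for the pool, 73.8% for clone 4, 64.6% for clone 8, 57.9% for clone 3, 85.6% for clone B52 and 63.7% for clone E9-3. It was lower than in the pool by 21.7 percentage points in clone 3 (adjusted exact p = 1.04e-09), by 16.0 in clone E9-3 (adjusted exact p = 1.65e-05) and by 15.04 in clone 8 (adjusted exact p = 1.93e-05). It was 5.95 points higher in clone B52 (adjusted exact p = 0.0498), close to the threshold, and the difference of clone 4 did not pass (5.83 points lower, interval from 11.7 lower to 0.676 higher). With the reads divided as described further on, no difference of its share from the pool was called. By B6 reads of clone B52, Igkv4-81 ranked number 9 of the 112 segments.

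Igkv4-79 changed allele between the clones. This functional segment was read mainly on B6 in clone 4 (251 B6 and 31 Cast reads), clone 8 (755 and 247), clone 3 (362 and 182) and the pool (710 and 374). Clone B52 instead had 245 B6 and 1485 Cast reads, and clone E9-3 had 119 and 304. The B6 share was 89.0% (84.8 to 92.2) in clone 4, 75.3% in clone 8, 66.5% in clone 3 and 65.5% in the pool, and fell to 28.1% (24.1 to 32.6) in clone E9-3 and 14.2% (12.6 to 15.9) in clone B52. The intervals of clones B52 and E9-3 overlapped neither each other nor those of the other libraries, while those of clone 3 and the pool overlapped. Relative to the pool, the share was 51.3 points lower in clone B52 (adjusted exact p = 1.93e-173) and 37.4 points lower in clone E9-3 (adjusted exact p = 1.14e-38), 23.5 points higher in clone 4 (adjusted exact p = 9.72e-16) and 9.85 points higher in clone 8 (adjusted exact p = 2.15e-06). With the reads divided as described further on, the calls in clones B52 and E9-3 remained and those in clones 4 and 8 were lost. The B6 reads of Igkv4-79 stayed within 0.218% and 0.634% of the library in the 5 clones, whereas its Cast reads ranged from 0.0479% in clone 4 to 2.15% in clone B52. There Igkv4-79 ranked number 4 of the 112 segments on the Cast allele. Both alleles together came to 2.502% of clone B52 and 1.23% of clone E9-3, 7.41-fold and 3.65-fold above the 0.338% of the pool, against 0.842% in clone 8, 0.436% in clone 4 and 0.328% in clone 3. The gap between clone 3 and clones B52 and E9-3 lies within the library set without Igkv3-5 reads: the share was 52.4 points higher in clone 3 than in clone B52 (adjusted exact p = 2.23e-116) and 38.4 points higher than in clone E9-3 (adjusted exact p = 1.21e-31). Its closest relative Igkv4-78 had B6 shares of 53.1% and 57.3% in clones B52 and E9-3 and its lowest share in clone 3.

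Igkv4-78, also functional, was higher in every clone than in the pool, where it made up 0.358%. Clone 8 had 1.23%, clone 4 had 0.881%, clone E9-3 had 0.814%, clone B52 had 0.616% and clone 3 had 0.573%. Clones 8, 4 and E9-3 passed the 2-fold limit, at 3.45, 2.46 and 2.27 times the pool, while clones B52 and 3 stayed below it at 1.72 and 1.60 times. The B6 share went from 85.8% (82.7 to 88.4) in clone 4 and 79.6% in clone 8 through 73.7% in the pool, 57.3% in clone E9-3 and 53.1% in clone B52 to 38.6% (35.5 to 41.7) in clone 3. Only in clone 3 did more of its reads come from Cast. All 5 clones differed from the pool, by 12.1 points upward in clone 4 (adjusted exact p = 2.27e-08) and 35.2 points downward in clone 3 (adjusted exact p = 3.27e-59). With the reads divided as described further on, only the call in clone 3 remained. Clones B52 and E9-3, next to each other in this order, could not be told apart (difference 4.30 points lower in clone B52, interval from 11.7 lower to 3.21 higher, adjusted exact p = 0.501).

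Igkv4-80, functional, was the most read of the 8 segments in the pool and the only one besides Igkv4-74 that was lower in every clone. Its percent of library was 0.451% for the pool, 0.363% for clone 4, 0.397% for clone 8, 0.136% for clone 3, 0.198% for clone B52 and 0.184% for clone E9-3. The 3 clones of the other library set passed the 2-fold limit, while clones 4 and 8 did not. Its B6 share was 78.5% for the pool, 54.9% for clone 4, 51.2% for clone 8, 27.4% for clone 3, 27.7% for clone B52 and 31.7% for clone E9-3. All 5 clones were lower than the pool, by 23.6 points in clone 4 (adjusted exact p = 8.46e-13) to 51.0 points in clone 3 (adjusted exact p = 6.66e-50). With the reads divided as described further on, only the call in clone 3 remained. In the other library of clone 4 at 48 h, the share of Igkv4-80 was 12.1%. Between clones of the same library set no difference passed: clone 4 was 3.73 points above clone 8 (interval from 4.07 lower to 11.4 higher), and clones 3, B52 and E9-3 differed by 0.304 to 4.31 points.

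The pseudogene Igkv4-77 passed the test and the 2-fold limit against the pool in clones 8, 4 and B52. It made up 0.332% of the pool, 0.929% of clone 4, 1.45% of clone 8, 0.616% of clone 3, 0.803% of clone B52 and 0.528% of clone E9-3. In these 3 clones it was 4.37, 2.80 and 2.42 times the pool, and in clones 3 and E9-3 1.86 and 1.59 times. In clones 8 and 3 it was the highest of the 8 segments. Its B6 share was 68.0% for the pool, 76.0% for clone 4, 65.3% for clone 8, 72.61% for clone B52, 56.4% for clone E9-3 and 43.5% for clone 3. The share was higher than in the pool in clone 4 (by 8.06 points, adjusted exact p = 0.00106) and lower in clone E9-3 (by 11.6 points, adjusted exact p = 0.00570) and clone 3 (by 24.5 points, adjusted exact p = 3.54e-29). The call in clone 4 did not hold in the other library of this clone at 48 h, where the share was 63.7%, below the pool (adjusted exact p = 0.558), nor with the reads divided as described further on. That division also ended the call in clone E9-3, while the call in clone 3 remained. Clones B52 and 8 did not differ by the test, with intervals from 0.0950 lower to 9.19 higher in clone B52 and from 6.21 lower to 0.968 higher in clone 8.

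The pseudogene Igkv4-75 was read on B6 only. The pool had 388 reads, clone 4 had 421, clone 8 had 1038, clone 3 had 332, clone B52 had 239 and clone E9-3 had 136. The time course had 5, 4, 63 and 74 reads at 12, 24, 36 and 48 h, and no library held a Cast read. Over the 10 libraries these are 0 Cast reads of 2700, which allows a Cast share of up to 0.111%. Among 104 segments that had 100 or more reads in the 10 libraries together, 14 had 0 reads on Cast and 3 had 0 on B6. Whether the Cast allele holds a segment that the hybrid genome can count was not tested. It was 0.121% of the pool and rose in clone 8 to 0.872%, in clone 4 to 0.651%, in clone E9-3 to 0.397% and in clone B52 to 0.346%, 7.21-fold to 2.86-fold above the pool, while clone 3 had 0.2004%.

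Igkv4-74, functional, and its neighbour Igkv4-73, a pseudogene, moved most with the library sets. Igkv4-74 had 929 B6 and 0 Cast reads in the pool, 144 and 0 in clone 4 and 268 and 1 in clone 8. Clone 3 had 30 and 0, clone B52 had 1 and 0, and clone E9-3 had 1 of each. It made up 0.290% of the pool, 0.223% of clone 4 and 0.226% of clone 8, and 0.0181% of clone 3, 0.00145% of clone B52 and 0.00583% of clone E9-3. The ratio to the pool was 0.00500 in clone B52, with a counting interval from 0.000703 to 0.0355, and 0.0202 in clone E9-3 (0.00503 to 0.0807). Igkv4-73 had 461 B6 and 0 Cast reads in the pool, 212 and 0 in clone 4 and 632 and 0 in clone 8. Clone 3 had 6 B6 and 65 Cast reads, clone B52 had 26 and 31, and clone E9-3 had 2 and 10. Its B6 share was thus 100% in the first 3 libraries and 8.45% (3.93 to 17.2), 45.6% (33.4 to 58.4) and 16.7% (4.70 to 44.8) in the others, and no library of one set overlapped one of the other. Its level was 0.144% of the pool, 0.328% of clone 4 and 0.531% of clone 8, and 0.0350% to 0.0824% of clones E9-3, 3 and B52.

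**Figure D2:**
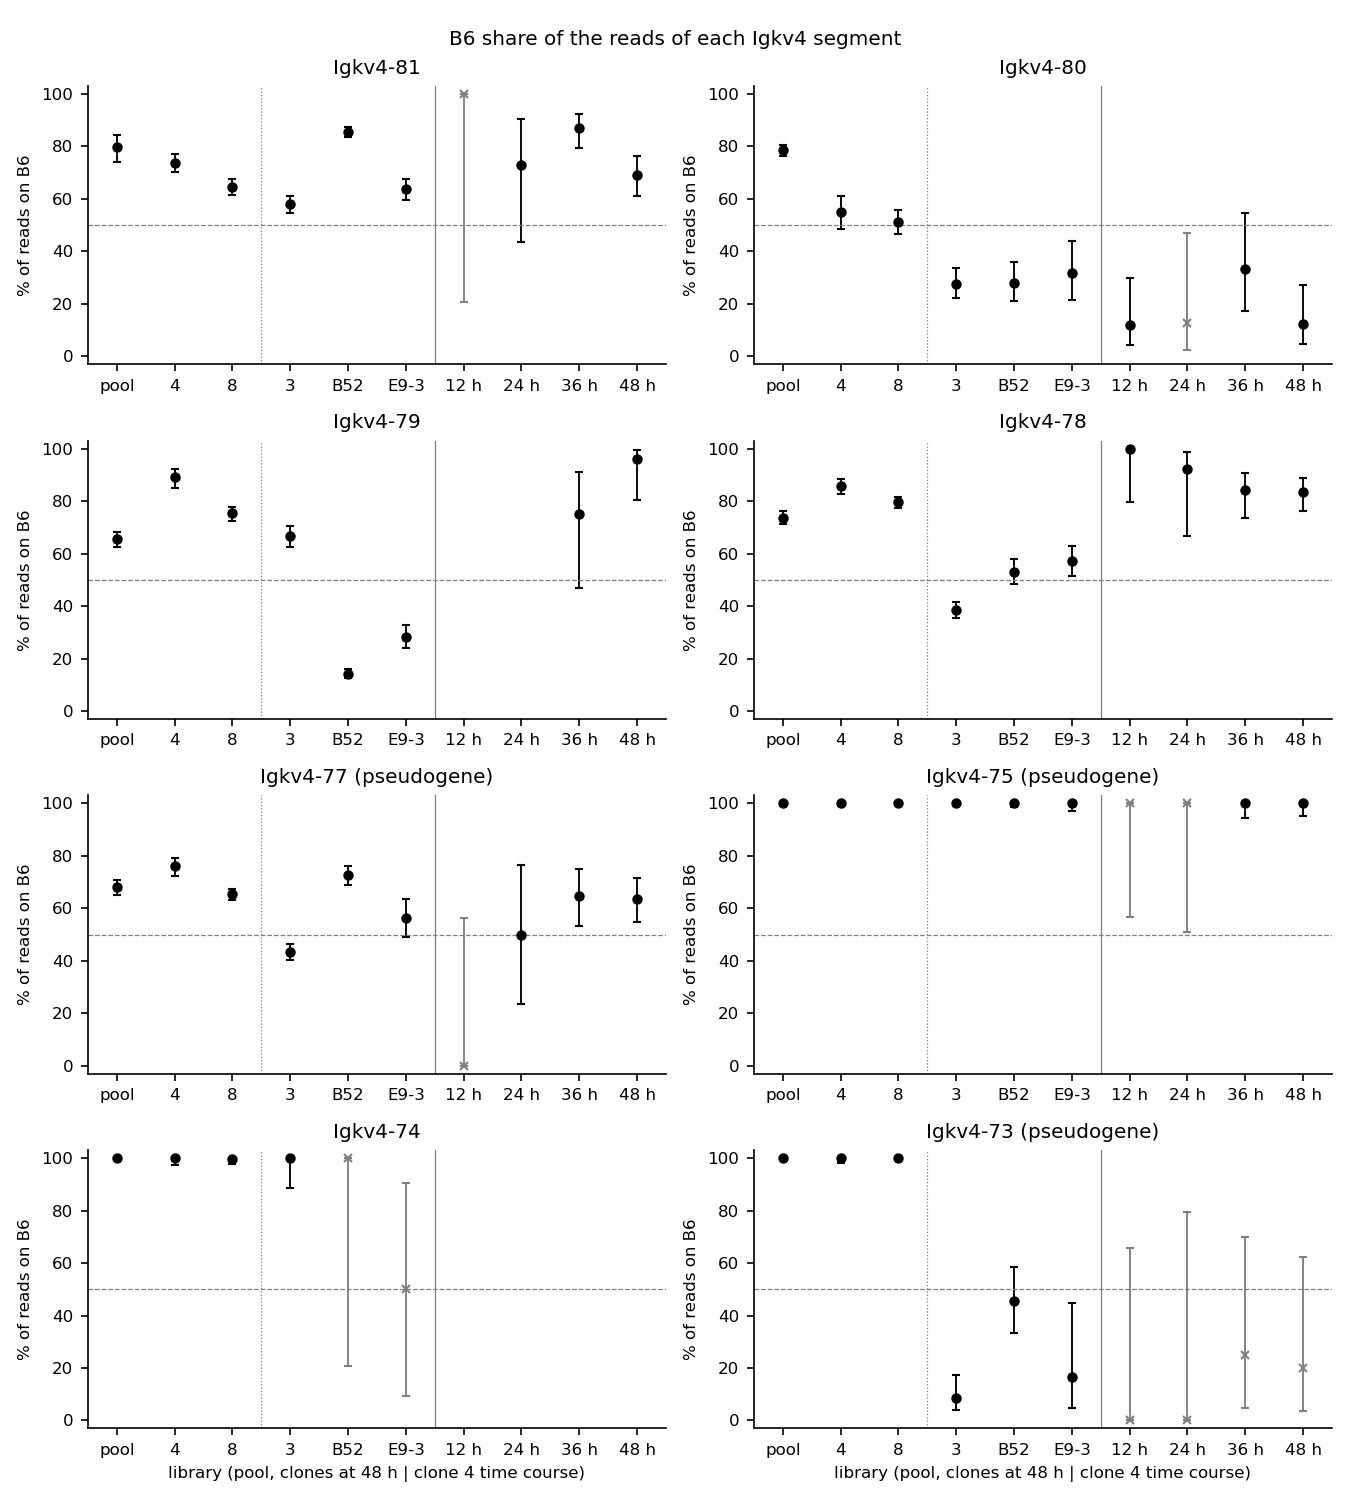
B6 share (y axis, percent of the segment's reads on the B6 allele) of each of the 8 Igkv4 segments by library (x axis) with 95% Wilson intervals; the dashed line marks equal reads on both alleles, the dotted line parts the library sets, and grey crosses stand for values from fewer than 10 reads. Igkv4-79 drops to 14.2% and 28.1% in clones B52 and E9-3, while Igkv4-75 stays at 100% throughout.

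Clone 4 at 48 h was sequenced in both tables, which shows how far a segment can move between libraries of one clone and time. Of the 8 segments, 3 differed in B6 share between these libraries (Igkv4-80, Igkv4-77 and Igkv4-73), beside 30% of all segments tested, and 2 differed in percent of library (Igkv4-74 and Igkv4-73), beside 28% of all. Igkv4-74 had 144 reads in the 48 h clone table and 0 of 10958 in the time course, where 24.4 would have matched its percent, so that it was at least 8.13-fold higher in the former. Igkv4-73 had 212 B6 reads in one library, and 1 B6 and 4 Cast reads in the other, where 35.9 B6 reads would have matched. For Igkv4-80, 129 B6 and 106 Cast reads stood against 4 and 29, a B6 share of 54.9% against 12.1% (adjusted exact p = 1.81e-05), with almost the same percent of library (0.363% and 0.301%). The share of Igkv4-77 was 76.0% against 63.7% (adjusted exact p = 0.0250). For Igkv4-81, Igkv4-79, Igkv4-78 and Igkv4-75 neither measure was called: their percents were 1.02% and 1.27%, 0.436% and 0.228%, 0.881% and 1.22%, and 0.651% and 0.675%. Their B6 shares were 73.8% and 69.1%, 89.0% and 96.0%, 85.8% and 83.6%, and 100% in both. In percent, Igkv4-79, Igkv4-78 and Igkv4-81 missed only the 2-fold limit, as their adjusted exact p was 0.00221, 0.00179 and 0.0364.

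**Figure D3:**
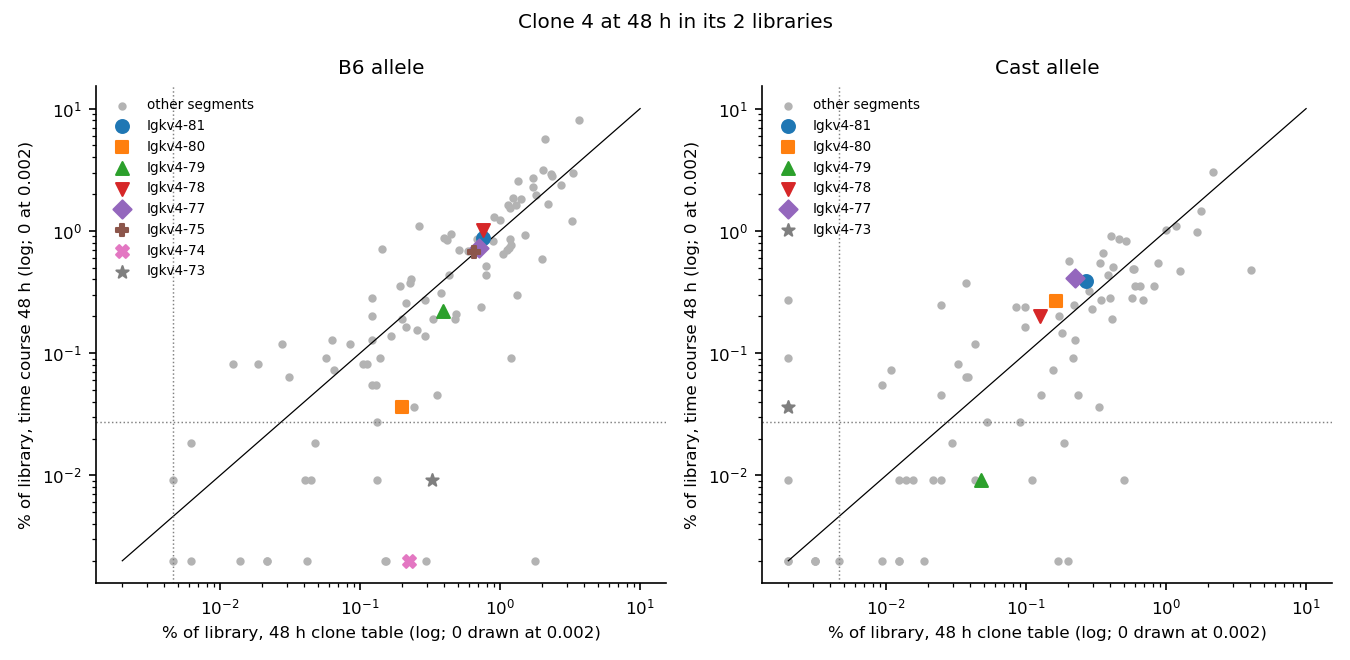
Percent of library on each allele of every segment in the 2 libraries of clone 4 at 48 h (x axis, 48 h clone table; y axis, time course; both on a log scale with 0 drawn at 0.002); coloured symbols are the Igkv4 segments, grey points the other segments, the line marks equal values and dotted lines the level of 3 reads. Of the coloured symbols, Igkv4-74, Igkv4-73 and Igkv4-80 lie farthest below the line on B6, while Igkv4-81, Igkv4-78, Igkv4-77 and Igkv4-75 lie close to it.

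The number of these segments that differed from the pool is given beside the share of all segments that did. In B6 share, 4 of 8 were called in clone 4 beside 54.4% of all segments, and 4 of 8 in clone 8 beside 58.3%. Clone 3 had 5 of 8 beside 68%, clone B52 had 5 of 8 beside 59.2%, and clone E9-3 had 7 of 8 beside 59.8%. With the time-course library in place of the 48 h clone table, clone 4 had 5 of 8 called, 2 higher (Igkv4-79 and Igkv4-78) and 3 lower (Igkv4-81, Igkv4-80 and Igkv4-73), beside 54.9%. The directions in the 48 h table were 3 higher and 1 lower in clone 4 and 2 of each in clone 8, whereas clone 3 had 0 higher and 5 lower, clone B52 had 1 higher and 4 lower, and clone E9-3 had 0 higher and 7 lower. The median difference over the 8 segments was 23.1 points lower for clone 3, 10.3 lower for clone B52 and 26.9 lower for clone E9-3, where the median over all segments was between 0.0383 lower and 0. For clones 4 and 8 it was 0 and 0.186 lower, and over all segments 0.273 higher and 0. Without Igkv4-73, Igkv4-74 and Igkv4-80, 3 of 5 were called in each of clones 4, 8, 3 and B52 and 4 of 5 in clone E9-3. The medians of these 5 were 21.7 points lower for clone 3, 16.0 lower for clone E9-3, 0 for clones B52 and 8, and 8.06 higher for clone 4. The call in clone E9-3 for Igkv4-74 rests on 2 reads. The reads were also divided by a chi-square between the 2 libraries of clone 4 at 48 h. These are of different library sets, and the smaller held 10958 reads. The divisor thus includes any difference between the sets and was not fitted to deeper pairs, so the remaining calls also depend on depth. When the reads were divided by 19.03, the mean chi-square of the B6 share between the libraries of clone 4, Igkv4-79 was the only one called in clones B52 and E9-3, beside 14.6% and 14.7% of all segments. None was then called in clones 4 and 8, beside 21.4% and 18.4%, and Igkv4-80, Igkv4-78, Igkv4-77 and Igkv4-73 were called in clone 3, beside 35.9%.

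In percent of library, 5 of 8 were called in clone 4, all higher than in the pool, beside 46.6% of all segments, and 6 of 8 in clone 8, again all higher, beside 45.6%. With the time-course library of clone 4, 6 of 8 were called, 4 higher (Igkv4-81, Igkv4-78, Igkv4-77 and Igkv4-75) and 2 lower (Igkv4-74 and Igkv4-73), beside 52% of all segments. In clone 3, 1 was higher and 3 were lower, beside 51.5% of all segments. Clone B52 had 4 higher and 2 lower beside 69.9%, and clone E9-3 had 4 higher and 3 lower beside 63.7%. The segments called lower were Igkv4-80 and Igkv4-74 in clones 3, B52 and E9-3, and Igkv4-73 in clones 3 and E9-3, the same segments that moved with the library sets. Among the other 5 segments every call was higher. The median ratio to the pool was 2.37 for clone 4, 3.57 for clone 8, 1.29 for clone 3, 2.07 for clone B52 and 1.93 for clone E9-3, where the medians over all segments were 1.09, 1.01, 0.921, 0.574 and 0.758. Without the 3 segments, 4, 5, 1, 4 and 4 of 5 were called in clones 4, 8, 3, B52 and E9-3, and the median ratios were 2.80, 4.37, 1.66, 2.86 and 3.28. A divisor for the percent was taken from the same libraries of clone 4, with the same limits. With the reads divided by 33.9, the mean chi-square of the percent between the libraries of clone 4, Igkv4-81 was called in all 5 clones and Igkv4-79 in clones 8, B52 and E9-3. Clone 4 then had 26.2% of all segments called, clone 8 had 34%, clone 3 had 42.7%, clone B52 had 56.3% and clone E9-3 had 27.5%. The calls of Igkv4-73 in clones 4 and 3, of Igkv4-80 in clone B52 and of Igkv4-78, Igkv4-75, Igkv4-80, Igkv4-74 and Igkv4-73 in clone E9-3 were lost.

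The clones were also compared with each other within the library sets. Between clones 4 and 8, the B6 share was called at 4 of 8 segments (Igkv4-81, Igkv4-79, Igkv4-78 and Igkv4-77), all higher in clone 4, beside 42.3% of all segments, and the percent of library at 0 of 8, beside 27.9%, although 6 of the 8 had an unadjusted p under 0.05 in Fisher's exact test. With the time-course library of clone 4 against clone 8, 3 of 8 were called in B6 share, beside 42.2%, with Igkv4-79 higher in clone 4 and Igkv4-80 and Igkv4-73 lower. Igkv4-81 (69.1% against 64.6%) and Igkv4-78 (83.6% against 79.6%) no longer passed, nor did Igkv4-77, which was 63.7% against 65.3%. In percent 3 of 8 were then called, beside 49%, all lower in clone 4 (Igkv4-79, Igkv4-74 and Igkv4-73), so that of these comparisons of clones 4 and 8 only the higher share of Igkv4-79 was called with both libraries. Between clones 3 and B52 the B6 share was called at 5 of 8 beside 64.4%, with Igkv4-79 higher in clone 3 and Igkv4-81, Igkv4-78, Igkv4-77 and Igkv4-73 lower. The percent differed at 3 of 8 beside 61.4%. Between clones 3 and E9-3 these counts were 3 of 8 beside 45.5% for the share and 2 of 8 beside 36.6% for the percent. Between clones B52 and E9-3, with 7 of the segments tested, they were 3 beside 39.2% and 2 beside 45.4%. Igkv4-81 was 3.78-fold higher in clone B52 and 3.49-fold higher in clone E9-3 than in clone 3, and its percent did not differ between clones B52 and E9-3 by the test (ratio 1.08, interval 0.983 to 1.19).

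Over the 5 clones, the highest percent of a segment was 4.06 times the lowest in the median of the 8 segments (3.78 without Igkv4-73, Igkv4-74 and Igkv4-80), and 5.73 times in the median of 99 segments. The steadiest were Igkv4-78 with 2.15-fold, Igkv4-77 with 2.75-fold and Igkv4-80 with 2.91-fold, whereas Igkv4-74 had 269 reads in clone 8 and 1 read in clone B52, of different library sets. The B6 share ranged over 32.6 points in the median of the 7 segments with enough reads in every clone, and as much without Igkv4-73 and Igkv4-80, and over 27.6 points in the median of 93. Igkv4-73 had the widest range of all 93, with 91.5 points between clones of different library sets, and Igkv4-79 came number 8, with 74.9 points. In the pool, 3 of the 8 had over 80% of their reads on B6 (Igkv4-75, Igkv4-74 and Igkv4-73), beside 35.6% of all segments, and 0 of the 8 over 80% on Cast, beside 8.91%.

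In the time course of clone 4, the 8 segments had 51 of 1737 reads at 12 h and 534 of 10958 at 48 h. At 12, 24, 36 and 48 h the sum was 2.94% (2.24 to 3.84), 4.00% (3.02 to 5.28), 4.81% (4.33 to 5.33) and 4.87% (4.49 to 5.29). The intervals at 12 and 24 h overlapped, and those at 36 and 48 h nearly coincided. A single segment outside the family, Igkv19-93, made up 58.95%, 31.9%, 14.9% and 8.94% of the reads at these times, and sets the denominator of these percents. Of the reads that remain without it, the 8 segments made up 7.15% (5.48 to 9.28), 5.88% (4.45 to 7.74), 5.65% (5.10 to 6.26) and 5.35% (4.93 to 5.81), with intervals that overlapped between neighbouring times. Without Igkv4-73, Igkv4-74 and Igkv4-80 as well, these were 3.37% (2.27 to 4.96), 4.76% (3.48 to 6.46), 5.24% (4.70 to 5.83) and 4.97% (4.56 to 5.42), so that the order of the times depends on Igkv19-93 and on these 3 segments, of which Igkv4-80 had 25 of the 51 reads at 12 h. At 12 h the segments split by allele: Igkv4-80 had 22 Cast and 3 B6 reads, Igkv4-78 had 15 B6 and 0 Cast reads, and Igkv4-75 had 5 B6 reads. Igkv4-77 had 3 Cast reads, Igkv4-73 had 2, Igkv4-81 had 1 B6 read, and Igkv4-79 and Igkv4-74 had 0, which allows up to 0.173% each. The summed B6 share was 47.1% (34.1 to 60.5) at 12 h, when 84.2% of all reads of the library were on B6, and 63.8%, 79.8% and 73.03% at 24, 36 and 48 h. Without Igkv4-73, Igkv4-74 and Igkv4-80 it was 87.5% (69.0 to 95.7) at 12 h and 76.3%, 83.5% and 77.6% later, so that the low value at 12 h rests on Igkv4-80.

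Igkv4-80 fell and Igkv4-81 rose between 12 and 48 h, with and without the reads of Igkv19-93, whereas Igkv4-77 rose as a percent of all reads only. Of the 6 segments tested, these 3 were called, 1 higher and 2 lower at 12 h, beside 70.3% of all segments. Without Igkv19-93 there were 2 calls, beside 46.6% of all segments, as Igkv4-77 no longer passed (ratio 0.339, interval 0.108 to 1.06, adjusted exact p = 0.0912). Igkv4-80 was then 10.6-fold higher at 12 h than at 48 h (adjusted exact p = 1.03e-13), and the ratio of Igkv4-81 was 0.101 (0.0141 to 0.719, adjusted exact p = 0.00457). Igkv4-80 made up 1.44%, 0.681%, 0.296% and 0.301% at the 4 times, a 4.78-fold difference between 12 and 48 h (adjusted exact p = 1.26e-07). At 12 h it was number 2 of the 112 segments on Cast, with 8.03% of the Cast reads. Its Cast reads numbered 22, 7, 14 and 29, of 274, 241, 1690 and 2550 Cast reads in all. Igkv4-81 had 1, 11, 101 and 139 reads, or 0.0576%, 0.937%, 1.42% and 1.27%, with a ratio of 12 to 48 h of 0.0454 (counting interval 0.00635 to 0.324, adjusted exact p = 1.26e-07). Igkv4-77 had 3, 10, 71 and 124 reads, or 0.173%, 0.852%, 1.00% and 1.13%, with a ratio of 0.153 (0.0486 to 0.479, adjusted exact p = 5.00e-05). Igkv4-78 was present from the start, with 0.864%, 1.11%, 0.973% and 1.22%, and no difference between 12 and 48 h passed (ratio 0.706, interval 0.415 to 1.20, adjusted exact p = 0.254), nor without Igkv19-93, where the ratio was 1.57 (0.924 to 2.66). Igkv4-75 had 0.288%, 0.341%, 0.888% and 0.675% (12 against 48 h, ratio 0.426, interval 0.173 to 1.05, adjusted exact p = 0.0859). Igkv4-79 had 0 reads at 12 and 24 h, 12 at 36 h and 25 at 48 h, when it made up 0.228%. The difference of 48 h from 12 h did not pass (adjusted exact p = 0.0551). Its 0.169% at 36 h was below the level of 3 reads at 12 and 24 h (0.173% and 0.256%), so a late start cannot be read. Between 36 and 48 h, 0 of 6 segments were called, beside 21.2% of all, and 0 had an unadjusted p under 0.05 in Fisher's exact test. Igkv4-74 was not detected at any time, and Igkv4-73 had 1 to 5 reads at each, too few to compare.

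Igkv4-81, Igkv4-78 and Igkv4-77 were read on both alleles by 48 h, and Igkv4-80 was at every time. At 48 h Igkv4-79 had 24 B6 reads and 1 Cast read, and Igkv4-73 had 1 B6 read and 4 Cast reads. Igkv4-81 had 0, 3, 13 and 43 Cast reads and 1, 8, 88 and 96 B6 reads. Igkv4-78 had 0, 1, 11 and 22 Cast reads and 15, 12, 58 and 112 B6 reads. Igkv4-77 had 3, 5, 25 and 45 Cast reads and 0, 5, 46 and 79 B6 reads, so that at 24 h its alleles were equal. At the depth of the 12 and 24 h libraries, where 3 reads make 0.173% and 0.256%, an order of the alleles cannot be read for Igkv4-81 or Igkv4-77.

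**Figure D4:**
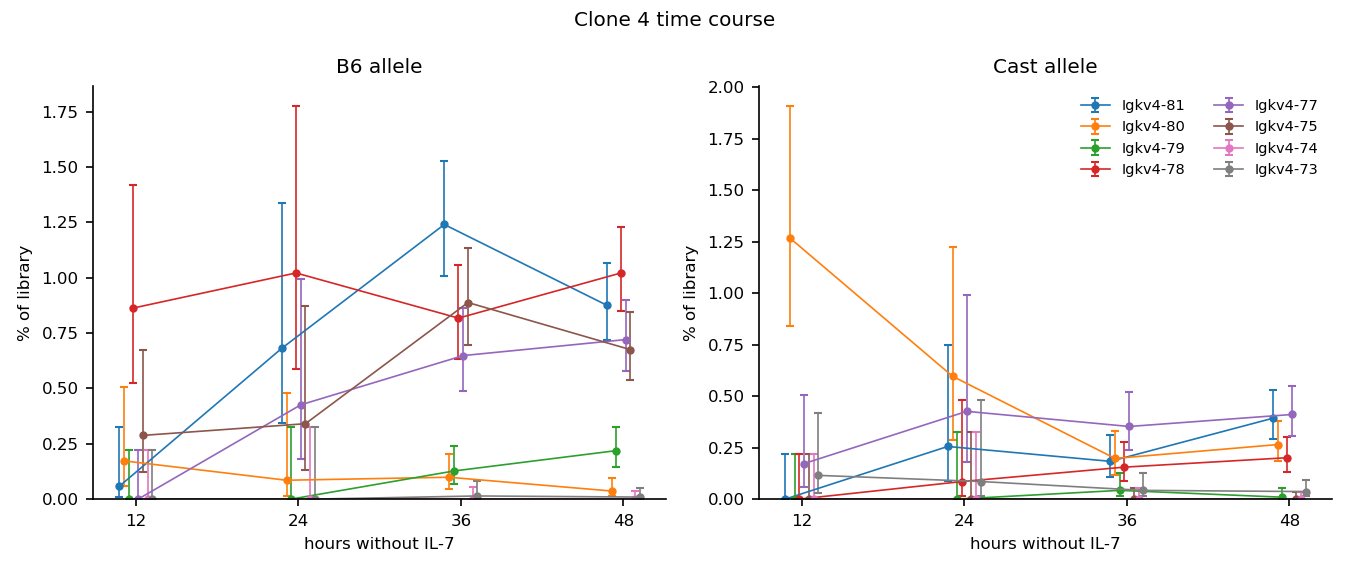
Percent of library (y axis) of each Igkv4 segment on the B6 (left) and Cast (right) allele of clone 4 against hours without IL-7 (x axis), with 95% Wilson intervals and 1 library at each time; points are shifted sideways for legibility. Igkv4-80 falls on Cast from its 22 reads at 12 h, whereas Igkv4-81 rises on B6.

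Among the Igkv4 segments, the share of Cast reads was larger at positions 73 to 81 than at the positions nearer to Jκ. The 9 segments at positions 60 to 72 were summed to 92.0% B6 for the pool, 98.5% for clone 4, 97.9% for clone 8, 82.4% for clone 3, 93.4% for clone B52 and 81.7% for clone E9-3, and the 9 at positions 50 to 59 to 95.6%, 92.9%, 87.2%, 61.6%, 88.4% and 71.5%. In each of these 6 libraries the 8 segments had the lowest summed B6 share, by intervals that did not overlap. This is a description without a test, and single segments that dominate a sum set its share. In summed percent of library, positions 60 to 72 made up 3.74% of the pool, 1.51% of clone 3, 2.10% of clone E9-3 and 3.04% of clone B52, whereas they made up 5.09% of clone 4 and 5.93% of clone 8. Positions 50 to 59 made up 8.02% of the pool and 5.52% to 11.7% of the clones. Over the reads of both alleles, the 8 segments in clones 3, B52 and E9-3 were above the pool and the other ranges were below it, except that positions 50 to 59 in clone B52 were level with it at 0.992 times. Among B6 reads alone the 8 segments in clone 3 were below the pool, as were the other ranges. Without Igkv4-73, Igkv4-74 and Igkv4-80, however, the rest of the 8 were above it, at 2.33% against 1.55% of B6 reads. Of the other segments of the table, those whose log2 percent over the 6 libraries of the 48 h table was most like that of the sum of the 8 were Igkv4-69, Igkv4-56 and Igkv4-58, with Pearson's r of 0.85, 0.79 and 0.77 over 6 libraries among 99 segments compared. These libraries share the pool as the lowest value of the sum, and all percents are parts of the same totals.

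**Figure D5:**
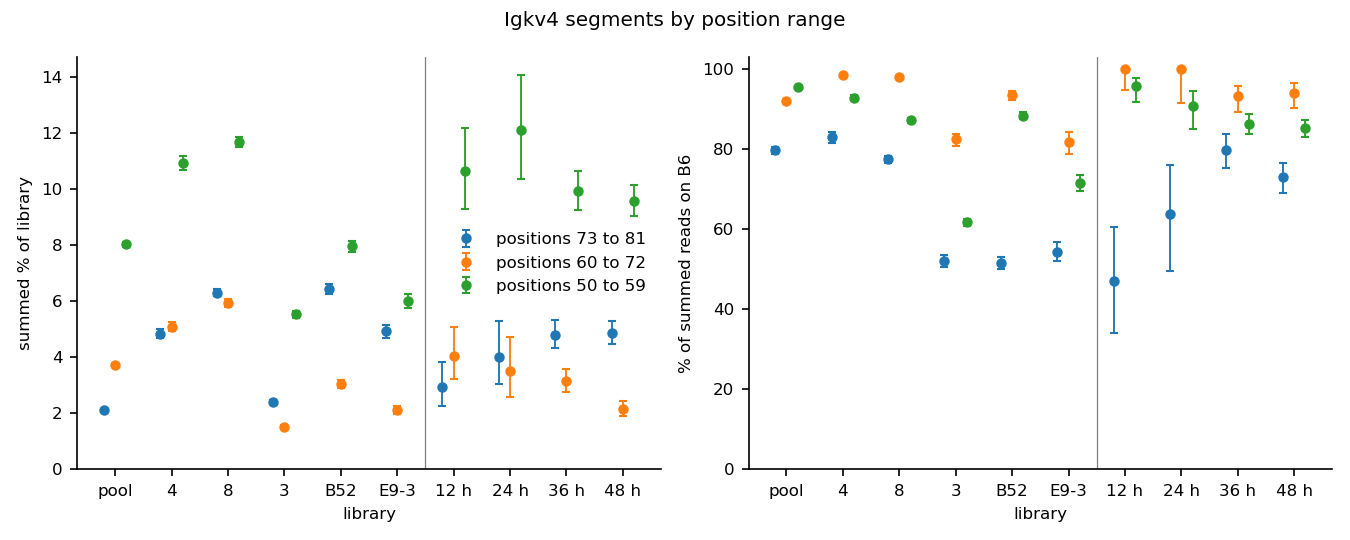
Summed percent of library (left y axis) and summed B6 share (right y axis) of the counted Igkv4 segments at positions 73 to 81 (8 segments, blue), 60 to 72 (9, orange) and 50 to 59 (9, green) by library (x axis), with 95% Wilson intervals. The blue points have the lowest B6 share in all 6 libraries of the 48 h table, from 51.5% in clone B52 to 82.9% in clone 4.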

How the data were processed

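Rearranged Igκ transcripts were assayed by VJ-seq in 10 of the 32 samples of the series, and the ATAC-seq and RNA-seq samples were not used here. The authors selected poly-A RNA, primed cDNA from Cκ, ligated an adapter to its 3′ end, amplified in 12 and then 7 PCR cycles and sequenced paired reads of 2 lengths on a Miseq, without stating which library had which. Reads were trimmed (Trim Galore is in the submitters' processing notes), aligned with Bowtie2 to a hybrid of mm10 and Cast, and counted with HTSeq. Program versions are not given in the sources used here. What the authors deposited is the raw count of reads on each allele of 112 Vκ segments, not normalized.

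Python 3.11.15 with SciPy 1.17.1, pandas 2.3.3 and NumPy 2.4.6 gave the percents, B6 shares, Wilson intervals, Newcombe intervals of differences of shares and Fisher's exact tests, and matplotlib 3.10.9 drew the figures. No count model such as a quasi-likelihood test was fitted, since each comparison is between 2 single libraries. The tests were tested on simulated counts before use. Positions and gene types came from GENCODE M21, matched by symbol, and sequences from the RefSeq assembly of the same build. The identity of V exons was computed with Biopython 1.88. The recombination signal was searched from 6 bases before to 40 bases after the end of the V exon.

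All 8 segments are named. Outside them, the 3 segments most like their sum by Pearson's r of log2(percent + 0.00875) and the most abundant segment of the time course (Igkv19-93) were named by rule, the value added being the percent of 3 reads in the shallowest of the 6 libraries. Igkv3-5 and Igkv10-94 were chosen after their values were seen. The segments and position ranges were chosen with earlier results of these data known. Alternatives varied the read minimum, the 2-fold limit, the denominator, the library of clone 4, the segments summed and the division of counts by the chi-square between the libraries of clone 4.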

Additional observations from a re-analysis of the deposited data

How the results depend on the processing

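Every call rests on reads of single libraries, and the depth limits the time course most, since 3 reads make 0.173% at 12 h. No paired analysis was possible because each test compares the reads of 2 single libraries, whose labels carry no replicate numbers. No clone stood apart from the other 4 by Dixon's criterion in any of the 17 values looked at. The numbers of segments called kept within 1.5 times under a minimum of 100 reads, B6 reads only, the 48 h library of the time course for clone 4 (though with other directions), and in the time course with a minimum of 10 reads, as did the number skewed in the pool. In the time course without its most abundant segment, Igkv19-93, the call of Igkv4-77 between 12 and 48 h was lost (2 calls in place of 3), and the summed percents at 12, 24, 36 and 48 h were 7.15%, 5.88%, 5.65% and 5.35%, sums added after seeing the data. A 1.5-fold in place of the 2-fold limit called 7 segments in clone 3. The share of all segments at the 1.5-fold limit is not given, so this count cannot be set against it. Reads divided by the chi-square between the clone 4 libraries gave 0 calls of the B6 share in clones 4 and 8 (beside 21.4% and 18.4% of all segments) and 1 in clones B52 and E9-3 (14.6% and 14.7%), and 2 calls of the percent in clone E9-3 (27.5%), since fewer reads enter the test.

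Without Igkv4-80, the summed percent was 1.65% for the pool, 2.27% for clone 3, 4.47% for clone 4, 5.90% for clone 8, 6.22% for clone B52 and 1.50% at 12 h, and the B6 share was 85.2% in clone 4, 79.2% in clone 8 and 77.0% at 48 h of the time course, and at 12 h turned to 80.8% from a Cast majority. B6 reads over B6 reads gave 2.92% for the pool, a lower 2.45% for clone 3, 5.58% for clone 4, 7.76% for clone 8, 5.02% for clone B52 and 1.64% at 12 h. When Igkv4-73, Igkv4-74 and Igkv4-80 were also left out, clone 3 was above the pool, at 2.33% against 1.55%. Over segments read at least 3 times on both alleles in the 48 h table, which leaves out Igkv4-75 and Igkv4-74, the B6 share was 74.7% for the pool, 79.1% for clone 4, 72.7% for clone 8, 50.3% for clone E9-3, 75.2% at 36 h and 68.7% at 48 h of the time course, and it turned to a Cast majority in clone 3 (47.2%) and clone B52 (48.7%). Leaving out Igkv4-73, Igkv4-74 and Igkv4-80, an alternative chosen after seeing the data, as were the comparisons within library sets, gave percents of 1.22% for the pool, 2.21% for clone 3, 3.92% for clone 4, 5.15% for clone 8, 6.14% for clone B52, 4.70% for clone E9-3 and 1.38% at 12 h. The B6 shares were then 72.8% in the pool, 54.0% in clone 3, 76.2% in clone 8, 76.3% at 24 h, 77.6% at 48 h and, turned, 87.5% at 12 h. The causes of these differences were not tested beyond the segments left out.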
